A study of Mus musculus with 3 samples.

Results

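Neurotrophins are small secreted proteins that keep neurons alive and shape their synapses, and the mouse genes for 3 of them and for 4 of their receptors were examined in cultured cortical neurons. The 7 genes, Bdnf, Ntf3, Ntf5, Ntrk2, Ntrk3, Ngfr and Sort1, were taken by their GENCODE symbol out of 27494 genes in a table of transcript levels. The level of a gene was that of its longest protein-coding transcript. All 7 were found, and together they had 26 transcript rows.

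RNA came from wild-type cortical neurons of Swiss-Webster mouse embryos at day 16 of gestation, dissociated and maintained in neurobasal medium with B27 supplement. The data comprised 3 libraries of 1 group, and the treatment label of each reads none, although the shared culture protocol also describes the topoisomerase poison etoposide. The labels name no step that removes other cells of the embryonic cortex, and they do not say whether the libraries came from separate cultures or litters. Levels are in TPM, the share of a library's reads scaled by transcript length, given for libraries 1, 2 and 3 in that order and then as mean ± SD (n = 3). With no second group, genes were compared with each other inside each library. Marker levels differed between libraries, with the summed astrocyte markers highest and the summed neuronal markers lowest in library 3, as given beside the Ntrk2 rows.

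A neurotrophin is made as a longer precursor that is cleaved to the mature factor. The mature factors act through TRK receptor tyrosine kinases: TrkB, the product of Ntrk2, binds BDNF and neurotrophin-4 (gene Ntf5), and TrkC, the product of Ntrk3, binds neurotrophin-3 (gene Ntf3). The uncut precursors bind a pair formed by the p75 receptor (gene Ngfr) and sortilin (gene Sort1), and sortilin also sorts proBDNF into secretory vesicles. Ntrk2 and Ntrk3 each give a full-length receptor with a kinase domain and truncated receptors that lack it, and the truncated TrkB is known as the main form in astrocytes.

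The place where the full-length and truncated messages part is shown because the receptor levels below depend on it. Each line gives the last 24 coding bases that both messages share, in lower case, and the bases that belong to that message alone, in capitals, 5′ to 3′ in the direction of the gene (GRCm38, GENCODE transcripts).
Ntrk2 full-length: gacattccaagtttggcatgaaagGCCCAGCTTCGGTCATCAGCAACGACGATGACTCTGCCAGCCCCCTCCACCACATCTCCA
Ntrk2 truncated: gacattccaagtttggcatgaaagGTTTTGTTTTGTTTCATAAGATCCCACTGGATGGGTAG
Ntrk3 full-length: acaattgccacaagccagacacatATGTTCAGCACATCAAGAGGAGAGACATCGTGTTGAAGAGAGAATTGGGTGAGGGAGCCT
Ntrk3 truncated: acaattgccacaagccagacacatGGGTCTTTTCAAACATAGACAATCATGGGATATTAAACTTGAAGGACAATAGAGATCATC

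For Ntrk2 the capitals of the full-length message open the exon at chr13:58985802-58985990, and those of the truncated message open the exon at chr13:58932023-58937027, which lies upstream of it on the plus strand. The truncated message adds only 38 coding bases of its own, shown whole, before a long untranslated end, whereas the full-length one adds 1073. For Ntrk3, on the minus strand of chromosome 7, the capitals open the exons at 78260284 to 78260414 (full-length) and 78304292 to 78304426 (truncated), and the own coding parts are 893 and 254 bases long.

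The genes for the 3 ligands ranked 7612 (Bdnf), 9264 (Ntf3) and 15732 (Ntf5) of 18221 protein-coding genes, whose median level was 2.84 TPM. Bdnf lies on chromosome 2 (109674700 to 109727007, plus strand) and stood at 3.85, 4.99 and 5.14 TPM, or 4.66 ± 0.706, from 842, 921 and 1002 reads. Library 1 was the low one, and the coefficient of variation of 15.2% exceeded the 3.30% that counting error alone gives at this depth. Ntf3 (chromosome 6, 126101413 to 126166744, minus strand) stood at 2.49, 2.20 and 3.30 TPM, or 2.66 ± 0.568, and library 3 was the high one. Ntf5 (chromosome 7, 45413695 to 45417178, plus strand) had 2, 1 and 1 reads, which gave 0.0199, 0.0118 and 0.0112 TPM. The 4 reads have a 95% exact Poisson interval of 1.09 to 10.2 reads, and this and the other intervals cover counting error only. Bdnf was above Ntf3 in 3 of 3 libraries, by 0.63 ± 0.24 on the log2(TPM + 1) scale (n = 3), and the ranges of the genes did not overlap. A two-sided exact permutation test, which flips the sign of each library's difference, gave p = 0.25. With 3 libraries this is the smallest p it can give, also in the tests below. With rows summed the difference was 3.12, from 11 Bdnf rows that share reads and 2 Ntf3 rows.

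Bdnf is known for its many promoters, each with its own first exon spliced to a single last exon that holds the coding sequence of the mature protein. The table had 11 Bdnf rows with 9 start sites, numbered here by position from 5′ to 3′ and not by the Roman numerals of the literature. All 11 rows end in the same last exon of 3626 bases (chr2:109723382-109727007), and their mean levels lay between 4.66 and 5.29 TPM. Such rows share nearly all of their reads, so their levels are not levels of separate messages. Each row was therefore set against the rows with the fewest reads, which had 829, 905 and 990, and the reads counted in addition were taken as the reads of its first exon.

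Starts 1, 2, 4 and 6 held 126 of the 128 additional reads of the 9 starts. Start 1, whose first exon has 640 bases, had 13, 16 and 12, and start 2 had 9, 11 and 9 in its 416-base or 499-base form. Start 4, the first exon best known for its response to neuronal activity, has 339 bases and had 11, 7 and 5. Start 6, with 347 bases, had 4, 11 and 18. The 95% exact Poisson intervals of start 6 in library 1 (1.09 to 10.2 reads) and in library 3 (10.7 to 28.4 reads) did not overlap, while start 1 varied by at most 4 reads between libraries. Start 6 was picked for this after the reads of all 9 starts were seen, and start 4 ran the other way. Starts 5, 7 and 8 were themselves the lowest rows in every library, so their count of 0 was set by the comparison. It does not show that their first exons held no reads. Starts 3 and 9 had 1 each. The exons differ in length, from 81 bases at start 5 to 640 at start 1, and a short first exon has fewer places for a read to begin. Whether a spliced read that reaches the last exon was counted for every row is not given in the sources used here, so these are reads that were not counted for the lowest row.

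**Figure D1:**
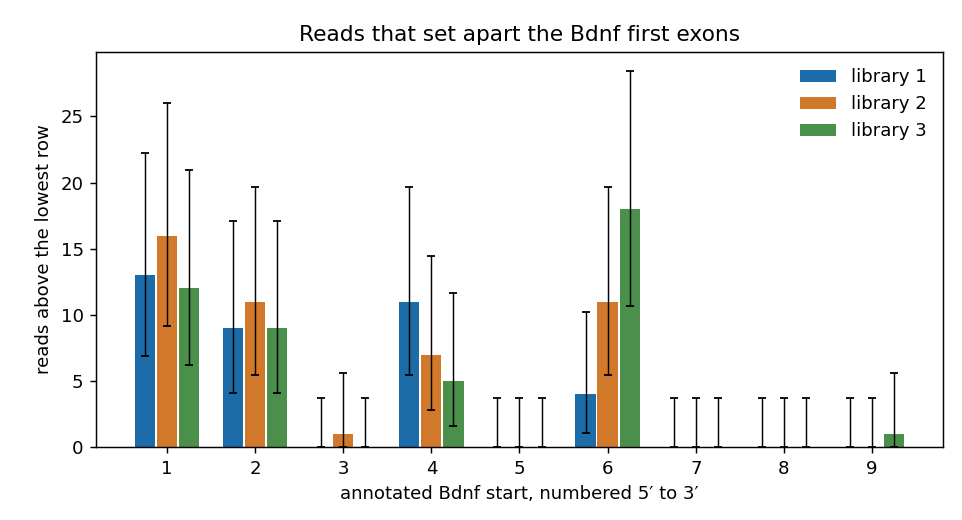
Reads counted for each Bdnf start site beyond those of the lowest Bdnf row, by library, with starts in order of position (x axis) and reads on the y axis. Starts 1, 2, 4 and 6 hold 126 of the 128 reads, and start 6 ranges from 4 in library 1 to 18 in library 3.

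The 250 bases before 3 of the starts are shown to set starts with additional reads (1 and 4) beside a start at the lowest row (5). Sequences are from RefSeq (GRCm38.p6, plus strand, 5′ to 3′), which lists 7 Bdnf promoters, 6 of them at a start of a deposited row. It lists none at starts 2 and 6, which also held reads, so the windows cover only part of the starts with reads. Capitals mark matches on either strand to CGTCA, the core of the cyclic AMP response element, or TCGTG, a core bound by the activity-induced factor NPAS4. CGTCA is also contained in the longer TGACGTCA.
Start 1, chr2:109674450-109674699: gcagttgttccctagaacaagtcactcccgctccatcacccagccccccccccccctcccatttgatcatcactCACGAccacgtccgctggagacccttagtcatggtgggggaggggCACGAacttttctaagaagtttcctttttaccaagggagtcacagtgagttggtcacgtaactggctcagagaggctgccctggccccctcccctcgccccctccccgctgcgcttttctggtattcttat
Start 4, chr2:109692186-109692435: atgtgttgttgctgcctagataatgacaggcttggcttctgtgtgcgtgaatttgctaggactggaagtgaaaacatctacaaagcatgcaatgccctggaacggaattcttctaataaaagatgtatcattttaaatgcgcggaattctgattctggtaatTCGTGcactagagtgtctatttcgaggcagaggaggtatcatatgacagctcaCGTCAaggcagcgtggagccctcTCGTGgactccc
Start 5, chr2:109692777-109693026: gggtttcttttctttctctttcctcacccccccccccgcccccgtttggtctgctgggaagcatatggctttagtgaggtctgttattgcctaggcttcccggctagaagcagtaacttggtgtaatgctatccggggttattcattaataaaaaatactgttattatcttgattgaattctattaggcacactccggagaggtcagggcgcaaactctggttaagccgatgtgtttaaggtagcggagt

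Start 1 had TCGTG on the reverse strand 176 and 131 bases before the start. Start 4 had CGTCA 35 bases before it and TCGTG 88 and 12 bases before it, all on the forward strand. Neither sequence was found before start 5, and the full element TGACGTCA, the E-box CACGTG and the TATA box TATAAA were found in none of the 3 windows. The windows before starts 3, 7 and 9, not shown, held none of these sequences either. The short motifs are common: 17.8% of the 32851 promoters in the table held CGTCA and 13.3% held TCGTG, against 1.55% for TGACGTCA, 6.02% for CACGTG and 12.4% for TATAAA. A match describes the letters and is not evidence of a bound site.

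Ntf3 had 2 nested rows, and the longer one (271 codons) took 5, 4 and 10 reads that the shorter one (258 codons) did not, over the 111 bases that only it contains. Both rows thus rested on almost the same reads.

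The TRK receptor genes were above their ligands' genes. Ntrk2 (chromosome 13, 58806596 to 59133970, plus strand) stood at 42.7, 48.8 and 40.3 TPM, or 43.9 ± 4.38, and ranked 1009 of the protein-coding genes. Its coefficient of variation was 9.96% where counting error gives 0.758%. Ntrk3 (chromosome 7, 78192362 to 78578408, minus strand) stood at 7.85, 7.88 and 8.80 TPM, or 8.17 ± 0.539, and ranked 5583. Ntrk2 exceeded Ntrk3 in 3 of 3 libraries by 2.29 ± 0.21 on the log2(TPM + 1) scale (n = 3; exact sign-flip permutation p = 0.25), a ratio of 5.45, 6.19 and 4.58. The difference was 1.49 with the highest row of each gene and 0.54 with rows summed, where Ntrk3 has 6 rows that share reads and Ntrk2 has 2. The longest coding stretch that their messages share without a mismatch is 23 bases long.

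Both receptor genes are long, at 327 kb for Ntrk2 and 386 kb for Ntrk3. Among the 533 protein-coding genes that span at least 300 kb, whose median level was 4.95 TPM, Ntrk2 ranked 30 and Ntrk3 ranked 198.

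Ntrk2 had a full-length row (821 codons, the one used above) and a truncated row (476 codons). The truncated row stood at 38.0, 44.6 and 53.3 TPM beside 42.7, 48.8 and 40.3 TPM of the full-length row. The truncated row was the lower of the pair in libraries 1 and 2 and the higher in library 3, so the mean difference of 0.03 ± 0.31 on the log2(TPM + 1) scale has no common direction (n = 3, exact sign-flip permutation p = 1). The rows have 1737 bases in common. If a read in a shared exon was counted for both rows, which the sources used here do not state, it drops out of their difference. Full-length minus truncated, the rows differed by 5080 and 4528 reads in libraries 1 and 2 and by -1309 reads in library 3. Per base of own sequence (6804 bases full-length, 5265 truncated), the full-length message was then higher in libraries 1 and 2 and the truncated one in library 3. With these base counts this held for any number of reads counted for both. The counts assume that the truncated row begins as another annotated Ntrk2 transcript does. In library 2 with no shared reads, truncated minus full-length was only -8.58 reads per 100 bases, so a small error in the counts could turn it.

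If, in addition, reads fall evenly along each message, the shared reads can be divided. Full-length Ntrk2 then came to 36.9, 41.9 and 31.0 TPM and truncated Ntrk2 to 28.8, 34.2 and 45.6 TPM. The truncated share was 43.9%, 45.0% and 59.5%, with library 3 apart from the other two. This calculation was chosen after the data were seen, and even coverage was not checked for Ntrk2. The length of the truncated row was itself recovered from the values (7002 bases), since its model differs between annotation releases.

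Libraries also differed in markers of other cells. The summed level of 10 astrocyte markers was 437, 465 and 530 TPM, and 6 of the 10 were highest in library 3. All 10 were at 1 TPM or more, beside 61.5% of all protein-coding genes. The most abundant was Slc1a3 (165, 185 and 203 TPM) and the least abundant was S100b (4.06, 2.79 and 2.64 TPM). The sum of 9 oligodendrocyte-lineage markers was 73.7, 56.1 and 90.5 TPM, with 6 of 9 highest in library 3 and library 2 about as far below library 1 as library 3 was above it, from Olig1 (35.0, 31.2 and 37.0 TPM) down to Mog, a myelin gene at a mean of 0.0286 TPM. The sum of 6 markers of GABAergic neurons, from Sst (131, 108 and 79.7 TPM) down to Dlx5 (2.63, 2.50 and 2.11 TPM), was 274, 284 and 188 TPM, the lowest in library 3, with 1 of 6, Dlx1 (7.15, 6.19 and 7.44 TPM, named after its values were seen), highest there. The part of these cells in the Ntrk2 rows was not tested, and in bulk RNA fewer cells of a type and less RNA per cell cannot be told apart.

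**Figure D2:**
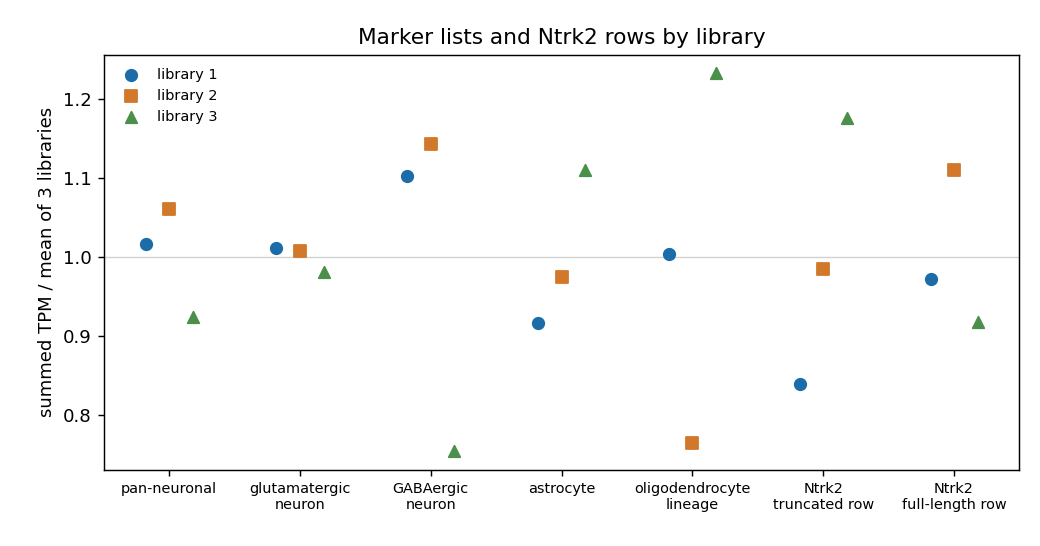
Summed TPM of 5 marker lists and TPM of the truncated and full-length Ntrk2 rows, each divided by its mean over the 3 libraries (y axis), with 1 point per library. Library 3 is the highest for astrocyte and oligodendrocyte-lineage markers and for the truncated row, and the lowest for the 3 lists of neuronal markers and the full-length row; library 2 is the lowest for oligodendrocyte-lineage markers.

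The other marker lists bear on the label of the cultures. The 10 pan-neuronal markers, led by Stmn2 at 687 ± 55.6 TPM (n = 3), were all at 1 TPM or more and summed to 2230, 2328 and 2028 TPM, with 0 of 10 highest in library 3. The least abundant was Elavl4 at 19.2 TPM. The 6 glutamatergic markers, led by Camk2a at 130 ± 4.27 TPM (n = 3) with Slc17a6 the least abundant at 6.28 TPM, summed to 328, 327 and 318 TPM, with 1 of 6 highest in library 3. Of all protein-coding genes, 61.5% reached 1 TPM. Only 2 of 8 microglial markers did so, with Tmem119 at 0, and 2 of 8 endothelial and mural markers, with Cldn5 at 0. The same held for 2 of 6 meningeal markers (highest Dcn, lowest Col1a2). Of 6 listed markers of Schwann cells and sensory neurons, 4 were found. Of these, 1 reached 1 TPM, Prph at 2.60 TPM, with Scn10a at 0.00822 TPM.

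Ntrk3 had 6 rows. The full-length row used above (825 codons) and the truncated row (612 codons) share 1777 bases, and the truncated row stood at 12.1, 12.2 and 13.8 TPM beside 7.85, 7.88 and 8.80 TPM. It was higher in 3 of 3 libraries, by 0.58 ± 0.01 on the log2(TPM + 1) scale (n = 3; exact sign-flip permutation p = 0.25). The truncated row is the shorter one and still had more reads, as full-length minus truncated came to -124, -111 and -146 reads. Per base of own sequence (560 bases truncated, 1523 full-length) the truncated row was the higher in every library, whatever number of reads was counted for both, under the same condition. A non-coding Ntrk3 model, given below, overlaps the end of the truncated one, and its part in these reads was not tested.

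The shared reads of Ntrk3 could not be divided by even coverage. A row with 1588 of the shared bases, which encode much of the extracellular part, had 870, 693 and 837 reads even with 1262 bases of a kept intron, where even coverage expects 1030, 875 and 1041 in the shared bases alone. If shared reads were counted for each row, at least 581, 542 and 635 reads lay in the 749 bases of the truncated message outside that row, or 77.6, 72.4 and 84.8 per 100 bases. At least 457, 431 and 489 lay in the 1712 such bases of the full-length message, or 26.7, 25.2 and 28.6 per 100 bases. The other 2 full-length rows, of 839 and 864 codons, had levels close to the first, at 9.65 ± 0.717 and 9.36 ± 0.705 TPM (n = 3). The remaining row is a non-coding model that overlaps the end of the truncated one, at 14.05, 15.3 and 16.6 TPM from 625, 573 and 660 reads. Reads of such a non-coding message could also be counted for the truncated row, and the 2 were not told apart.

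**Figure D3:**
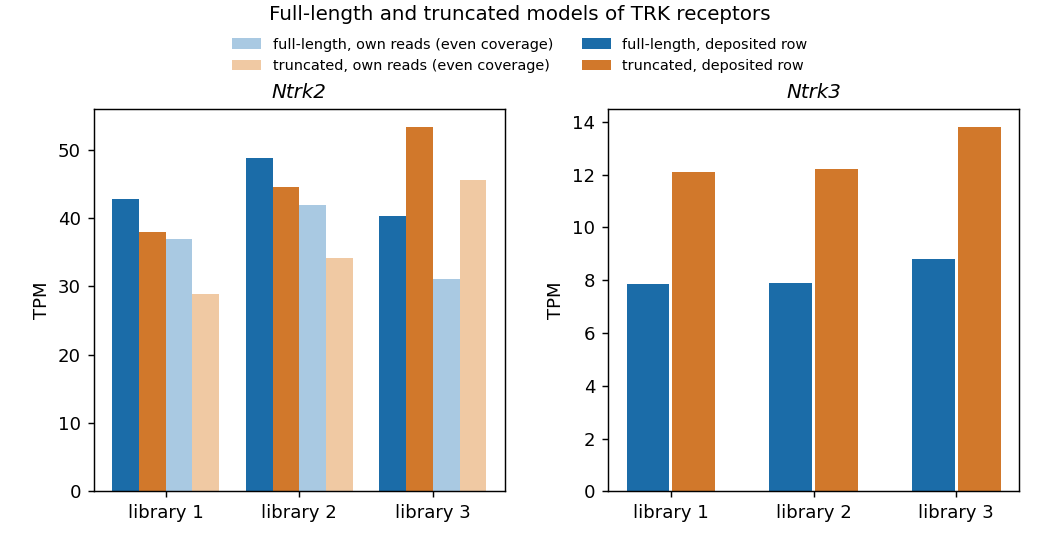
TPM (y axis) of the full-length and truncated models of Ntrk2 (left) and Ntrk3 (right) in each library, with dark bars for deposited rows, which share reads, and pale bars for Ntrk2 after dividing shared reads by even coverage. The truncated Ntrk2 row is above the full-length row only in library 3, and the truncated Ntrk3 row is above it in all 3 libraries.

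The 2 receptors of uncut precursors stood far apart. Sort1 (chromosome 3, 108284091 to 108361511, plus strand) was at 31.3, 37.6 and 31.3 TPM, or 33.4 ± 3.65, with library 2 the high one. Ngfr (chromosome 11, 95568818 to 95587735, minus strand) was at 0.249, 0.289 and 0.229 TPM, or 0.255 ± 0.0305, from 44, 43 and 36 reads. Its spread between libraries, a coefficient of variation of 11.9%, was below the 15.7% that counting error gives, so no difference between libraries was detectable at this depth. Sort1 exceeded Ngfr in 3 of 3 libraries by 4.77 ± 0.12 on the log2(TPM + 1) scale (n = 3; exact sign-flip permutation p = 0.25), a ratio of 126, 130 and 137. Sort1 also had a row for a kept intron at 8.77, 9.10 and 8.52 TPM, and a partial coding row at 34.2 ± 3.66 TPM (n = 3) whose level was close to that of the longest row.

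In order of level the genes were Ntrk2, Sort1, Ntrk3, Bdnf, Ntf3, Ngfr and Ntf5, and no neighbours overlapped in range on the longest row. As ratios of mean TPM the steps ran from 1.32 (Ntrk2 over Sort1) to 17.9 (Ngfr over Ntf5, the latter from 4 reads). On the log2(TPM + 1) scale those steps were 0.39 and 0.31, since the added 1 compresses differences between genes under 1 TPM. The step from Ntrk2 to Sort1 in library 3 depended on what is counted as Ntrk2. With shared reads divided by even coverage, full-length Ntrk2 alone was 31.0 TPM there, beside 31.3 TPM for Sort1. Both Ntrk2 messages together came to 76.6 TPM. Of the 7 genes, 5 were at a mean of 1 TPM or more, beside 61.5% of all protein-coding genes.

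**Figure D4:**
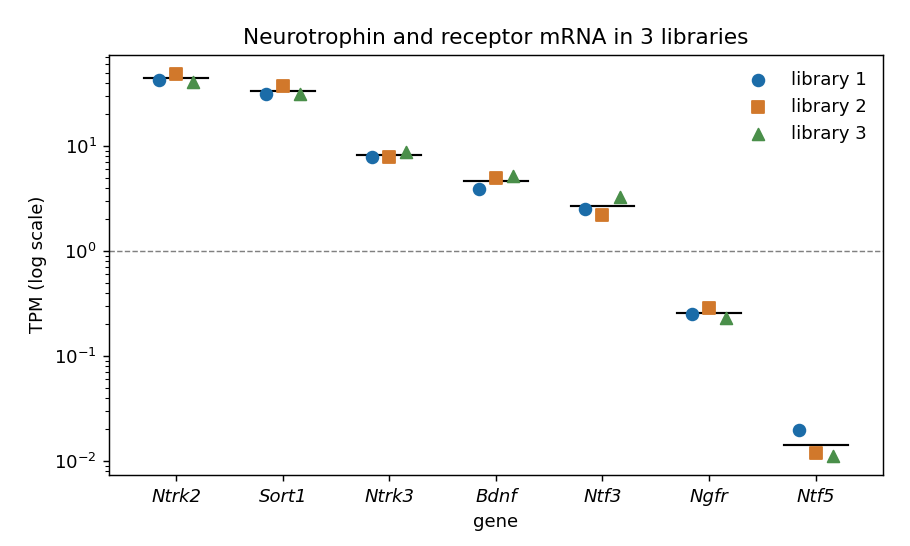
TPM of the 7 genes on a log axis, with a point for each library and the mean. Levels run from Ntrk2 at 43.9 TPM to Ntf5 at 0.0143 TPM, with 5 genes above and 2 below 1 TPM.

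Of 16 genes for sorting and cleavage of neurotrophin precursors, 10 (62.5%) were at 1 TPM or more, near the 61.5% of all protein-coding genes, and the list's median was 3.27 TPM beside 2.84 TPM. Cpe, the carboxypeptidase that takes part in sorting proBDNF, was at 423, 477 and 523 TPM, the highest of the list. Serpini1, a neuronal inhibitor of plasminogen activators, was at 49.3 ± 6.27 TPM, the convertase gene Pcsk2 at 43.9 ± 5.77 TPM and Hap1, a partner of proBDNF and sortilin in transport, at 23.8 ± 3.94 TPM (n = 3 for each). Those below 1 TPM included Pcsk5, Mmp9, Plg and Mmp3, and Mmp7 was listed at 0.

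Of 15 genes for sortilin relatives and partners of p75, 14 (93.3%) were at 1 TPM or more, beside 61.5% of all protein-coding genes. The list's median was 10.98 TPM, beside 2.84 TPM. The highest were Bex3 (141 ± 12.9 TPM), Maged1 (123 ± 4.78), Ndn (104 ± 6.70) and Arhgdia (87.2 ± 4.40; n = 3 for each), which encode proteins that bind the intracellular part of p75 or act with it. These partners stood at high levels where Ngfr itself was at 0.255 TPM. Nradd, a p75 relative, was at 0.253 TPM.

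Of 21 adaptors and proximal effectors of TRK receptors, 19 (90.5%) were at 1 TPM or more, beside 61.5% of all protein-coding genes. The list's median was 6.75 TPM, beside 2.84 TPM. The scaffold gene Kidins220 was at 44.0 ± 2.02 TPM, the adaptor genes Grb2 and Crk at 40.4 ± 2.57 and 34.9 ± 1.65 TPM and the phosphatase gene Ptpn11 at 23.1 ± 0.924 TPM (n = 3 for each). Shc1 (0.816 TPM) and Plcg2 (0.128 TPM) were below 1 TPM. Of 13 genes for surface modulators of TRK receptors, kinases, phosphatases and ubiquitin ligases, 12 (92.3%) reached 1 TPM, beside 61.5% of all protein-coding genes. The list's median was 14.7 TPM, beside 2.84 TPM. Nedd4, a ubiquitin ligase, led this list at 89.6 ± 5.88 TPM (n = 3), followed by Cdk5r1, Fyn and Ptprs at 44.5, 43.9 and 40.4 TPM, and the adenosine receptor gene Adora2a was at 0.0803 TPM.

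Of 17 regulators of Bdnf transcription, 15 (88.2%) were at 1 TPM or more, beside 61.5% of all protein-coding genes. The list's median was 6.17 TPM, beside 2.84 TPM. Mef2c was at 105, 147 and 112 TPM, with library 2 high, and Arnt2, Mef2a and Mef2d, which like it encode transcription factors, were at 31.6, 29.2 and 19.5 TPM. Rest, the repressor of neuronal genes, was at 0.732 TPM and Nfatc4 at 0.0601 TPM.

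Of 17 other neurotrophic factors and receptors in the table, 9 (52.9%) were at 1 TPM or more, with a median of 2.16 TPM, both below the values for all protein-coding genes. The growth factor genes Ptn (118 ± 10.4 TPM) and Mdk (15.4 ± 0.930), Manf (11.8 ± 0.997) and the receptor gene Cntfr (10.2 ± 0.404; n = 3 for each) were the highest. Gdnf was at 0.0674 TPM and its receptor gene Ret at 0.550 TPM, and Cntf, Cdnf, Nrtn, Artn, Lif and Gfra3 were also below 1 TPM. Pspn was not in the table. Across these lists only levels are described, since no group was available to show change.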

How the data were processed

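Poly-A RNA was made into strand-specific libraries and sequenced on an Illumina NextSeq, per the labels' protocols. The deposited values are TPM per transcript, computed by the authors, on GENCODE vM4 models as the table is named. Trimmomatic, TopHat, Bowtie, HTSeq and mm10 are named per the submitters' processing notes, without versions or roles. How strand and reads with several placements were handled, and any filter, is not given in the sources used here.

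Of 84660 rows, 83017 matched GENCODE M21 (same build) and 82987 were given a gene. Reads per row were recovered because the product of TPM and model length came in whole steps of a unit particular to the library, to within 0.01 in 100% of 42156 rows with equal models. They came to 33.9, 29.9 and 29.5 M over the fullest row of each gene (exons of overlapping genes count more than once). At 2 kb, 1 TPM stands for 103, 86.5 and 91.4 reads. For 2 of the 26 rows used, the length was found by searching for whole reads. Whole reads served for depth, counting error, reads per exon and the division of reads between TRK models, and no count model was run because there is 1 group. Full-length models share the stop codon of the gene's longest coding sequence, and truncated ones start alike and stop at least 100 codons earlier.

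Differences between genes are of log2(TPM + 1) within a library, so ratios of low genes are understated, and were tested by an exact permutation of signs across libraries (two-sided). Since separate cultures are not stated, the 3 samples may be technical replicates. A p of 0.25 records only that their 3 differences have the same sign, and does not measure their spread. The genes and lists were chosen with earlier results of these data known. Named genes are the 7 genes with the models of Bdnf, Ntrk2 and Ntrk3, the up to 4 highest of each pathway list with any below 1 TPM, and the highest and lowest of each marker list. Some genes that this rule would name are not reported here. Alternatives were leaving out each library, other choices of row, a pseudocount of 0.1, detection at 0.5 and 5 TPM and scaling to nuclear protein-coding genes. The calculations were tested on simulated data. Python 3.11.15, numpy 2.4.6, pandas 2.3.3 and scipy 1.17.1 were used.

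Antisense models overlap Bdnf (Gm45346, 497 bases, no value used here) and Sort1 (Gm12523, 329 bases, 0.0129 TPM), and whether counting used strand is not stated.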

Additional observations from a re-analysis of the deposited data

How the results depend on the processing

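Of 37 recalculations that could change the size of one of the 5 differences between genes or models, 34 kept their direction. These leave out even coverage for Ntrk3, which its reads went against, and choices of row that were the same for the Ntrk2 models. The exceptions were Ntrk2 truncated minus full-length, which was 0.03 with all libraries, -0.15 without library 3 and -0.030 with shared reads divided by even coverage, and Ntrk3 truncated minus full-length, which was -1.04 when rows were summed, a sum over 3 full-length rows against 1 truncated row that share reads. For differences that were positive in every library, leaving out a library, scaling and the pseudocount could change only the size. Their kept direction was thus fixed in advance, and only another choice of row could turn it. Leaving out 1 library gave 2.19 to 2.40 for Ntrk2 minus Ntrk3, 0.50 to 0.71 for Bdnf minus Ntf3, 4.70 to 4.81 for Sort1 minus Ngfr, -0.15 to 0.13 for the Ntrk2 models and 0.57 to 0.58 for the Ntrk3 models. Sizes moved further with other choices: Ntrk2 minus Ntrk3 was 1.49 with the highest row and 0.54 with rows summed, Bdnf minus Ntf3 was 3.12 with rows summed (11 Bdnf rows that share reads against 2), and Sort1 minus Ngfr was 5.94 with rows summed, 6.17 after scaling and 6.56 with a pseudocount of 0.1. The Ntrk3 models differed by 0.36 with the highest row. With detection at 5 TPM, 3 of the 7 genes passed in place of 5, and the share of all protein-coding genes at that level was not computed. Scaling to nuclear protein-coding genes multiplied all levels by 4.72, 4.68 and 4.85 in libraries 1, 2 and 3. This puts Ngfr at 1.21 TPM and 6 of the 7 genes at 1 TPM or more. It raises every other gene as well, and the share of all protein-coding genes was not recomputed. Of 49 recomputed levels, 35 stayed within 1 SD and 14 moved, all under that scaling or another choice of row. Leaving out 1 of 3 libraries cannot move a mean by 1 SD, and Ngfr and Ntf5 have only 1 row. Most of the 35 were thus fixed in advance and do not show that the levels are stable. No paired analysis was possible because samples of 1 group have no partner in another group, and pairs were of genes within a library. Depth limits Ntf5 (4 reads) and the first exons of Bdnf.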
